A study of Neurospora crassa with 24 samples.

Results

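Relative to the median level of each stage, the genes described here changed less than 2-fold between 15 and 120 min of conidial germination in Neurospora crassa. On the same scale they rose between 240 and 360 min on both media tested. A gene was taken when its log2 level, relative to the median level of its stage, changed by less than 1 between 15 and 120 min. It also had to rise by at least 0.6 on that scale between 240 and 360 min. Both conditions had to hold on Bird medium (BM) and on maple sap medium (MSM). A total of 402 genes met both conditions, among 8676 genes with a usable level at all 4 stages on both media and 9730 genes listed. They are called the late-rise genes below. Because measured values chose them, their first and last steps are given as a description and were not tested. The change between 120 and 240 min did not enter the selection directly and is the step that was tested, although it shares its 120 and 240 min levels with the steps that did.

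Conidia of strain FGSC2489, a monokaryotic wild-type stock, were plated on cellophane over agar and kept in constant white light. BM is a synthetic medium rich in nitrogen and minerals, and MSM is maple sap set with agar. Tissue was frozen 15, 120, 240 and 360 min after plating, stages 1 to 4, which on BM correspond to fresh spores, first polar growth, doubled long axis and first branching. The same times were used on MSM. The paper reports that germination began earlier on MSM, while germ tubes extended more slowly there. Equal times need not be equal stages of growth on BM and MSM. Differences in pace were not separated from other effects of the medium. Each of the 8 combinations of medium and time had 3 replicate libraries, 24 in all, all from the same strain and culture method, so the groups differ in medium and time only as far as the labels say.

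The deposited value is a level of expression estimated by LOX, a program that fits one relative level per stage to the read tallies of all replicates. The lowest stage of a gene on a medium is set to 1, so levels can be compared between stages of 1 gene on 1 medium but not between genes or media. Replicates were pooled in that estimate. No value per library was used, so no SD between replicates can be given, and each error below is a standard error (SE) on the log2 scale derived from the deposited 95% bounds. Total reads are not part of the deposited levels, so the depth behind a value shows only through the width of its bounds.

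Changes are given relative to the other genes. On BM the median log2 level of the usable genes fell by 0.52 between 240 and 360 min, and on MSM it fell by 0.02. The selection subtracted these medians, so a rise of 0.6 corresponds to a deposited rise of 0.08 on BM and of 0.58 on MSM. Between 15 and 120 min the median log2 level changed by -0.52 on BM and 0.28 on MSM, which was subtracted too. A selected gene could thus fall more than 2-fold in deposited BM level in that step, as fkr-2 did from 2.79 to 1. Without that subtraction 103 genes met the conditions, 95 of them among the 402. For the tested step, the median log2 change of the usable genes, 0.42 on BM and -0.04 on MSM, was subtracted. As a check of the course, 5 genes abundant in conidia (eas, which encodes the conidial hydrophobin, con-6, con-8, con-10 and con-13) all had their highest BM level at 15 min, and eas, con-6 and con-8 did so on MSM, where con-13 was highest at 120 min and con-10 at 360 min.

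A germinating conidium first swells, then sends out a germ tube that extends and branches. Young germlings of N. crassa sense one another, grow toward each other and fuse, which joins many spores into 1 colony. That exchange runs through mitogen-activated protein (MAP) kinase cascades, in particular the MAK-2 cascade, which shuttles to the growing tips in an alternating rhythm, and through the MAK-1 cell wall integrity cascade. Branching hyphae also remodel their wall, acidify vacuoles and turn over proteins through the ubiquitin-proteasome pathway.

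Of the 402 late-rise genes, 38 carried a gene symbol in the RefSeq annotation (NC12 assembly) and a further 43 had only a description in the study's annotation of eukaryotic orthologous groups (KOG), which was at hand for 1753 genes. The remaining 321 had neither and are given by locus number. Each library pooled many germlings, so a larger share of germlings at a stage and more RNA per germling cannot be told apart. The median rise between 240 and 360 min was 0.91 on BM and 1.00 on MSM, against 0.22 and 0.16 over all genes usable on both media. The rise reached 2-fold on BM for 158 genes, on MSM for 200 and on both for 111. It reached 4-fold on both media for 13. A rise of 0.6 or more was met by 16.7% of the 8676 genes on BM, by 22.4% on MSM and by 7.99% on both, before the condition on the first step, and these shares are given only as the size of the pool that was drawn from. The level at 360 min was the highest of the 4 centred levels on both media in 330 of the 402. It was so on BM in 348 and on MSM in 374, against 43.7% and 40.6% of all 8676 genes. The selection itself required a rise into that stage, so these counts only describe what was selected.

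**Figure D1:**
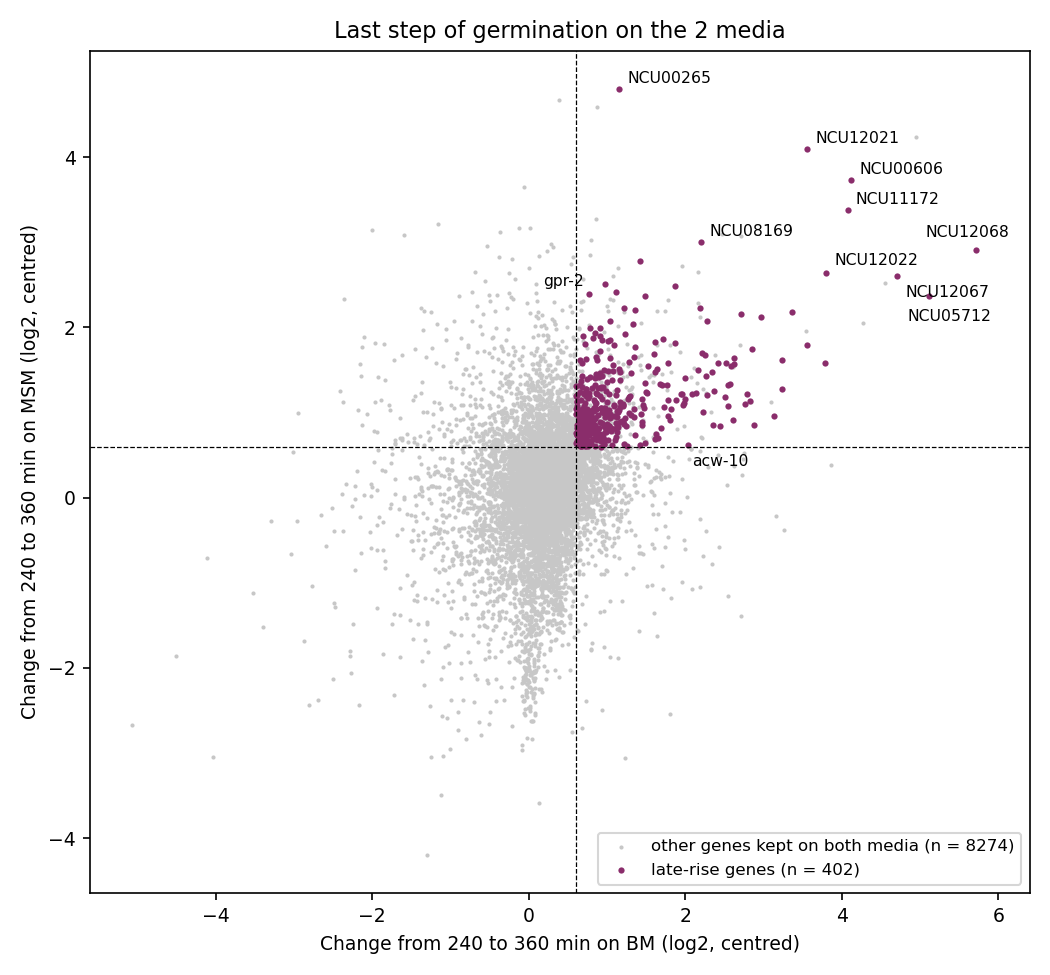
Each point is 1 gene usable on both media; the x axis is the centred log2 change from 240 to 360 min on BM and the y axis the same on MSM, with dashed lines at the 0.6 of the selection. The 402 late-rise genes (purple) fill the upper right corner, most of them below 2 on both axes; NCU12068 lies farthest right at 5.71 and NCU00265 highest at 4.80, and grey points in that corner failed the condition on the first step.

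The genes with the largest rises on both media had no symbol. NCU00606, a predicted reductase on chromosome I (7858582 to 7859522), had deposited levels of 2.75, 1, 2.61 and 31.5 on BM at 15, 120, 240 and 360 min. On MSM its levels were 1, 1.13, 1.68 and 22.1. Nearly the whole change came in the last step on both media, 4.11 ± 0.076 on BM and 3.73 ± 0.043 on MSM in log2 (SE), or 17.3-fold and 13.3-fold. NCU12021 (chromosome VII, 1570143 to 1571561) stood at 1.04, 1, 9.23 and 75.5 on BM and at 1, 1.27, 1.12 and 18.9 on MSM. NCU11172 (chromosome III, 2861439 to 2863151) stood at 1.13, 1, 7.80 and 91.6 on BM and at 1, 1.55, 1.54 and 15.8 on MSM. For both genes the climb on BM began by 240 min, whereas on MSM the 240 min bounds still overlapped those at 120 min. The change from 120 to 240 min was lower on MSM than on BM by 2.94 ± 0.14 for NCU12021 and by 2.52 ± 0.14 for NCU11172.

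NCU12068 (chromosome VI, 151704 to 153543) had the widest range of any late-rise gene, with deposited BM levels of 1.66, 1, 9.68 and 354. Its last step on BM was 5.71 ± 0.16 in log2, or 52.5-fold. On MSM its levels were 1, 1.07, 1.47 and 10.96, a last step of 2.91 ± 0.21. NCU08169 (chromosome VII, 3616556 to 3618540) went the other way between media, with 1.11, 1, 2.38 and 7.62 on BM and 1, 1.48, 4.68 and 37.2 on MSM. NCU00265 (chromosome III, 3218739 to 3220987), singled out after its values were seen, was the most uneven of all. It moved from 2.57 to 3.99 on BM between 240 and 360 min, and from 3.38 to 93.1 on MSM, a centred change of 1.16 ± 0.048 and 4.80 ± 0.031. Across the 402 genes the rise was larger on BM for 190 and larger on MSM for 212, and the difference between the media ran from -2.80 to 3.65 in log2 with a median of 0.03.

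Several of the late-rise genes lay side by side on the chromosomes. Of the 402, 61 had another late-rise gene as the next protein-coding gene on either side, in 26 pairs and 3 runs of 3. That is 15.2% of them, while 8.29% of all genes usable on both media stood beside a late-rise gene. The run on chromosome VI (148024 to 153543) held NCU07108, NCU12067 and NCU12068, whose BM rises were 2.28 ± 0.15, 4.71 ± 0.25 and 5.71 ± 0.16 and whose MSM rises were 2.08 ± 0.11, 2.60 ± 0.33 and 2.91 ± 0.21. Their paths before 240 min differed. NCU07108 fell between 120 and 240 min on BM by 1.50 ± 0.16 and rose on MSM by 1.02 ± 0.19, while NCU12068 rose on BM by 2.86 ± 0.58.

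A run on chromosome IV (3195504 to 3199426) held NCU16806, NCU16807 and NCU04488. NCU16807 had BM levels of 2.81, 1, 2.43 and 10.1 and NCU04488 had 1.72, 1, 3.32 and 10.4, and the rises of both were over 2 on BM and about 1.5 on MSM. NCU16806 rose less, by 1.06 on BM and 0.81 on MSM. The run on the same chromosome of NCU06615, NCU06616 and NCU06617 (1813053 to 1817723) had rises between 0.64 and 1.01. NCU12022 and NCU12021 on chromosome VII overlap by 406 bases on the map, and their BM levels at 360 min were 32.9 and 75.5. Whether tallies in the shared bases were assigned by strand is not given in the sources used here, so their values may not be independent. The symbol-bearing pair gcy-1 and cut-1 on chromosome IV lay 661 bases apart and is described below.

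Genes of cell communication and fusion were among those selected. Of 30 genes in a list of MAP kinase cascade and fusion genes, 6 were late-rise genes: ham-5, ham-6, ham-7, ham-8, adv-1 and os-5. That is 20%, against 4.63% of all genes usable on both media. The list was drawn up with earlier results of these data known, so this share is a description only. Genes of doubtful role, among them the late-rise gene prk-3, were taken off it after values were seen. Genes of the osmosensing pathway, such as os-5, are in it. Also shown are nox-1 and nor-1, which encode the NADPH oxidase needed for germling fusion and its regulatory subunit. They lie outside the list, were added after their values were seen and are not part of its count. The products differ in kind. HAM-7 is a wall-anchored sensor upstream of MAK-1, HAM-5 is the scaffold of the MAK-2 cascade, HAM-6 and HAM-8 are membrane proteins, ADV-1 is a zinc binuclear cluster transcription factor required for fusion and OS-5 is the MAP kinase kinase of the osmosensing pathway.

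The ham-7 level rose from 1 and 1.12 at 15 and 120 min to 5.74 and 12.4 at 240 and 360 min on BM. On MSM its levels were 1, 1.88, 3.20 and 9.06. It rose in the middle step on both media, by 1.93 ± 0.022 on BM and 0.80 ± 0.018 on MSM. The ham-8 level stood at 1.10, 1, 3.31 and 7.57 on BM and at 1, 1.42, 1.19 and 4.29 on MSM. On BM ham-8 rose in the middle step by 1.31 ± 0.024, whereas on MSM it fell by 0.21 ± 0.023, and the change was lower on MSM by 1.52 ± 0.033. All of its MSM increase over the 120 min level therefore came after 240 min.

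The same split was smaller in ham-6 and ham-5. The ham-6 level was 1, 1.34, 2.21 and 3.56 on BM and 1, 1.20, 1.06 and 2.26 on MSM. In the middle step it rose on BM by 0.31 ± 0.019 and fell on MSM by 0.14 ± 0.027. The ham-5 level was 1.05, 1, 2.22 and 4.42 on BM and 1, 1.33, 1.25 and 2.90 on MSM. It rose in the middle step on BM by 0.73 ± 0.027 and did not pass the test on MSM, where the change was -0.06 ± 0.030. The adv-1 level was 1.02, 1.02, 1 and 2.27 on MSM, flat through 240 min, and 1, 1.18, 1.79 and 3.06 on BM. Its last step was 1.30 ± 0.0093 on BM and 1.20 ± 0.013 on MSM.

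The oxidase gene nox-1 had levels of 1.11, 1, 2.63 and 5.62 on BM and 1, 1.70, 2.04 and 5.63 on MSM. The lowest stage of nox-1 was not the same on BM and MSM, so its levels at 360 min cannot be compared between them. Its middle step was larger on BM (0.98 ± 0.021) than on MSM (0.30 ± 0.022). Its regulator gene nor-1 took another path, with BM levels of 1.65, 1.36, 1 and 1.25 and MSM levels of 1.36, 1.05, 1 and 1.61. It was lowest at 240 min on both media, fell in the middle step on BM by 0.87 ± 0.014 and did not pass the test on MSM, at -0.04 ± 0.015. The os-5 level rose in the middle step on both media, by 0.65 ± 0.024 on BM and 0.76 ± 0.019 on MSM, and its last step was 0.69 on BM and 0.81 on MSM.

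**Figure D2:**
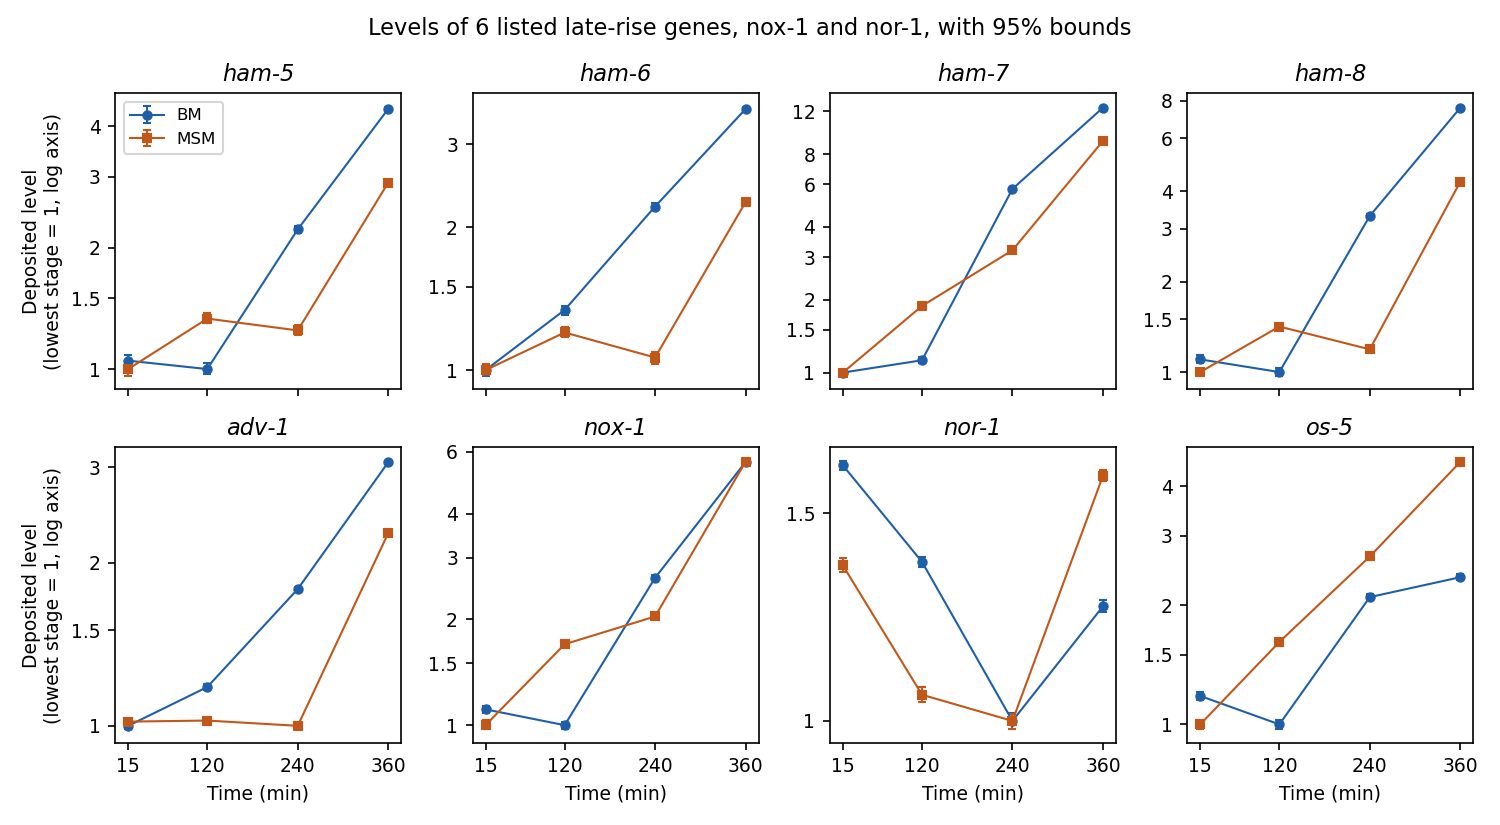
Deposited level (log axis, lowest stage of the gene on that medium set to 1) against time in min for the 6 listed late-rise genes, nox-1 and nor-1 on BM (blue circles) and MSM (orange squares), with bars for the 95% bounds. The BM lines of ham-5, ham-6, ham-8 and adv-1 climb by 240 min while their MSM lines are still at 1.25 or below, and nor-1 is lowest at 240 min on both media.

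Of the 24 list genes that were not selected, 1 met both rises but not the first condition. Prm1, which encodes the membrane protein that helps plasma membranes merge at fusion, rose between 240 and 360 min by 3.54 on BM and 1.96 on MSM, and had changed by -1.68 on MSM in the first step. The gene ham-9 missed the BM rise, with 0.59 on BM and 1.26 on MSM. The transcription factor gene pp-1, a target of MAK-2, had rises of 0.52 and 0.95, and mak-2 itself rises of 0.88 and 0.45 with a first step of 1.41 on MSM. The soft gene so had rises of 0.92 and 0.43 and mek-1, the MAP kinase kinase gene above mak-1, of 1.57 and 0.07. Other list genes rose little or fell in the last step on both media. Among them were ham-2 (0.19 on BM, -0.13 on MSM), nrc-1 (0.02, 0.22), os-2 (0.01, -0.08) and os-4 (-0.30, 0.06). The last step was above 0 for 26 of 30 list genes on BM and 28 on MSM, against 6294 and 5369 of all 8676 genes. Over the whole list the rise was 0.6 or more for 12 of 30 genes on BM and 12 of 30 on MSM, where 16.7% and 22.4% of all genes met it. The median last steps of the list were 0.50 and 0.42, against 0.22 and 0.16 over all genes usable on both media. In the middle step 19 list genes rose and 9 fell on BM, and 19 rose and 5 fell on MSM. Of all genes usable on BM 35.6% rose and 36.3% fell, and of those usable on MSM 35% rose and 32.5% fell.

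Most proteasome genes with a late rise on both media were left out by the first condition. Of 30 genes in the proteasome list, 3 (10%) were late-rise genes, against 4.63% of all genes usable on both media. In all 21 had a rise of 0.6 or more on both media, and 18 of these had already changed by 1 or more between 15 and 120 min on MSM. The 3 that remained were rpn-10, the gene of a ubiquitin receptor of the regulatory particle, rpt-1, the gene of an ATPase of its base, and pcb-6, the gene of a beta subunit of the core. The rpn-10 level was 1.60, 1, 3.50 and 5.36 on BM and 1, 2.15, 4.49 and 8.54 on MSM. Its first steps were -0.16 (BM) and 0.82 (MSM). The rpt-1 level was 1.07, 1, 1.91 and 2.13 on BM and 1, 1.99, 3.47 and 6.18 on MSM, and that of pcb-6 was 1, 1, 1.84 and 1.96 on BM and 1, 1.78, 3.01 and 5.40 on MSM. All 3 rose in the middle step on both media.

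Leaving out rpn-4, which is named after a yeast transcription factor of proteasome genes and is not a subunit, the other 29 proteasome genes had first steps on MSM from 0.38 (rpn-12) to 2.15 (pca-5) with a median of 1.28. On BM their first steps ran from -0.16 to 0.69. All 29 rose in the middle step on both media, where 35.6% of all genes usable on BM and 35% of those usable on MSM rose. All 29 had last steps above 0, 0.54 to 1.24 on BM, and on MSM 0.42 to 1.30. The gene rpn-4 fell in the middle step by 2.54 on BM and 1.65 on MSM and had last steps of -0.60 and -1.37. The selection therefore cut through a set of genes with similar last steps, and pca-1 (0.599 on BM) and rpn-12 (0.591 on MSM) lay just below the required rise.

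**Figure D3:**
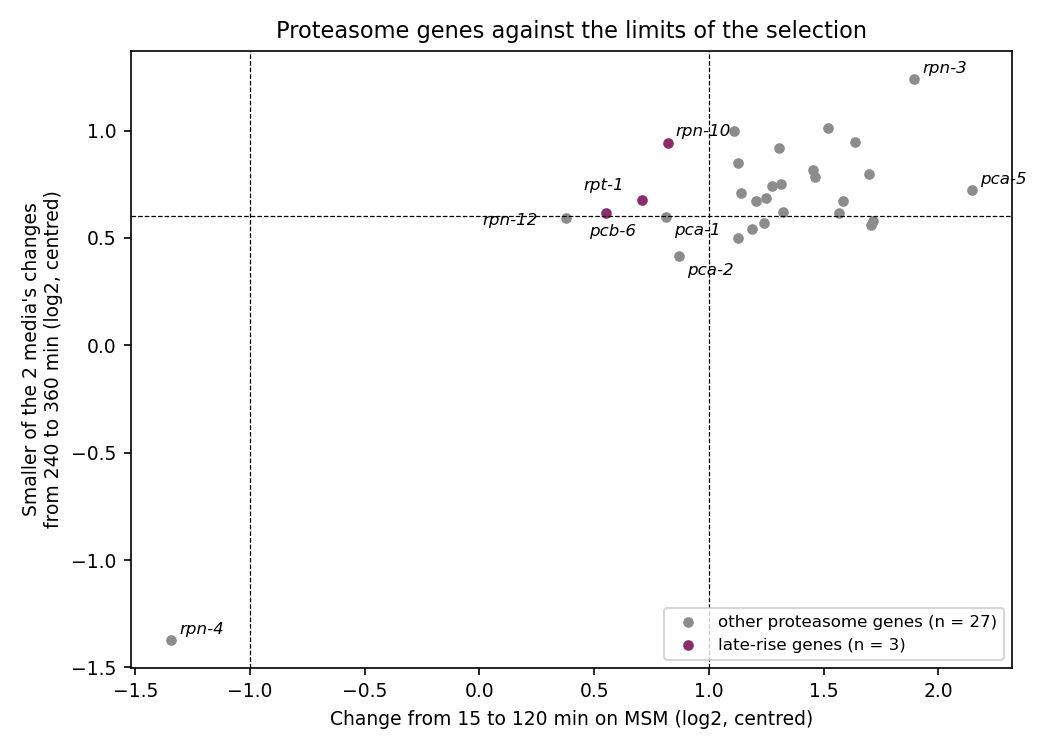
Each point is 1 of 30 genes of the proteasome list, plotted by its first step on MSM (x axis, log2) and the smaller of its last steps on the 2 media (y axis, log2), with dashed lines at the limits of the selection. The 3 late-rise genes (purple) sit in the same cloud as 26 others and rpn-4 stands alone at the lower left.

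Between 120 and 240 min the late-rise genes mostly moved up. On BM 234 of the 402 rose and 44 fell, against 35.6% and 36.3% of all 8773 genes usable on BM. On MSM 228 rose and 39 fell, against 35% and 32.5% of 8855 genes. These calls rest on a two-sided z test with Bonferroni adjustment over all usable genes at an adjusted p below 0.01. With every SE multiplied by 3 the calls fell to 164 on each medium, 138 of them upward on BM. No share over all genes is given at that setting, so the upward share cannot be compared there. The median middle step was 0.62 on BM (lowest -2.83, highest 2.86) and 0.45 on MSM (lowest -2.37, highest 3.49), against 0.01 and -0.00042 over all genes usable on both media.

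The upward share was not confined to genes that rose late on both media. Of 464 genes that met the first condition and the last rise on BM only, 54.5% rose in the middle step on BM and 47.8% on MSM. Of 751 that did so on MSM only, 41.9% rose on BM and 51.7% on MSM. For the late-rise genes the shares were 58.2% and 56.7%. These differences in share were not tested.

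By the direction of the middle step, 176 late-rise genes rose on both media (19.8% of all 8676 genes did), 9 fell on both (18.7%), 15 rose on BM and fell on MSM (8.61%) and 25 fell on BM and rose on MSM (10.2%). The other 177 passed the test on 1 medium or neither. The change from 120 to 240 min on BM and on MSM had a Pearson correlation of 0.37 and a Spearman correlation of 0.35 over the 402 genes, and of 0.34 and 0.35 over all 8676, as a description across genes that share the same libraries.

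**Figure D4:**
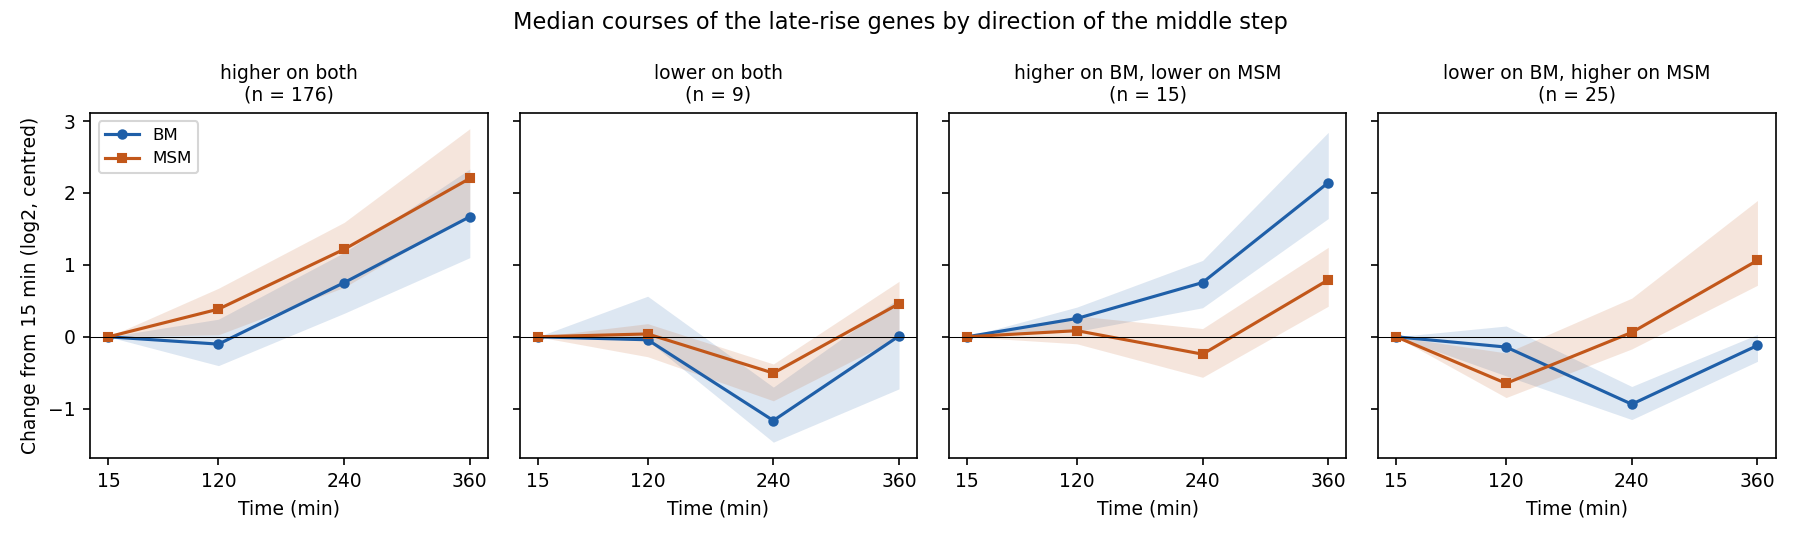
Median centred log2 change from 15 min (y axis) against time in min for the late-rise genes grouped by the direction of the tested middle step, on BM (blue) and MSM (orange), with bands from the lower to the upper quartile over genes. The 176 genes that rose on both media climb from 120 min on, to medians of 1.67 on BM and 2.20 on MSM, while the 9 that fell on both dip at 240 min and reach medians of 0.01 on BM and 0.46 on MSM at 360 min.

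The 176 genes that rose in both the middle and the last step included 18 with a symbol. Among them was tol, which is required for the incompatibility between mating types in vegetative cells. On BM its level went through 1.11, 1, 9.29 and 30.3, and on MSM through 1, 2.06, 4.84 and 9.62. Its middle step was 2.80 ± 0.20 on BM and 1.27 ± 0.11 on MSM. The vacuolar ATPase subunit gene vma-10 rose in the middle step by 1.45 ± 0.028 on BM and 1.11 ± 0.016 on MSM, with deposited levels of 4.44 and 9.54 at 360 min. Of 19 vacuolar genes in its list, 5 met the rise on both media and 4 of these failed the first condition, all on MSM only.

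The gene fkr-2, of an FK506-binding protein family, had BM levels of 2.79, 1, 4.05 and 5.84 and MSM levels of 1, 1.56, 2.19 and 3.71. It rose in the middle step on both media, by 1.60 ± 0.0096 on BM and 0.52 ± 0.0057 on MSM. The thioredoxin gene trx and the gene mim1, whose product helps insert proteins into the mitochondrial outer membrane, rose in the middle step on BM by 1.32 ± 0.031 and 1.22 ± 0.028 and on MSM by 0.75 ± 0.022 and 0.62 ± 0.018. The sterol C-14 reductase gene erg-3 rose by nearly the same amount on both media, 0.79 ± 0.019 on BM and 0.76 ± 0.013 on MSM. The chromatin remodeling factor gene crf4-3 rose by 1.08 ± 0.015 and 0.59 ± 0.011.

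The transcription factor gene tah-4 had BM levels of 1.60, 1, 2.21 and 2.47 and MSM levels of 1, 2.27, 4.19 and 10.2. It rose in the middle step on both media, by 0.73 ± 0.10 on BM and 0.92 ± 0.074 on MSM, and its last step was 0.68 ± 0.073 on BM and 1.30 ± 0.046 on MSM. It was the only 1 of 65 transcription factor genes in its list to be selected, or 1.54%, against 4.63% of all genes. The transcription factor genes adv-1 and chc-1, also late-rise genes, lie outside that list. The clock-controlled gene ccg-16 rose in the middle step by 0.40 ± 0.034 and 0.50 ± 0.015. The histone gene hH4-2 rose by 0.78 on BM and 0.43 on MSM in the middle step, with reads counted only where they mapped uniquely, so reads shared with the near-identical hH4-1 are missing from it and its value is uncertain.

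The 9 genes that fell in the middle step on both media included cut-1, gcy-1, ena-1 and pls-1. The ena-1 gene, of a sodium-transporting P-type ATPase, had BM levels of 3.67, 2.49, 1 and 1.36 and MSM levels of 1.26, 1.59, 1 and 2.01. The cut-1 gene, of a haloacid dehalogenase family protein, had 2.29, 2.09, 1 and 1.69 on BM and 1.11, 1.54, 1 and 2.24 on MSM. Its neighbor gcy-1, a predicted glycerol dehydrogenase gene, had 3.59, 1.69, 1 and 1.37 on BM and 1.22, 1.68, 1 and 1.69 on MSM. All 3 were lowest at 240 min on both media, and at 360 min on BM their deposited levels were still below those of fresh spores, while on MSM they were above them.

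In the middle step ena-1 fell by 1.73 ± 0.0097 on BM and 0.63 ± 0.0093 on MSM, cut-1 by 1.48 ± 0.020 and 0.59 ± 0.016, and gcy-1 by 1.18 ± 0.029 and 0.71 ± 0.024. The tetraspanin gene pls-1, whose product works with a NADPH oxidase in other filamentous fungi, differed from these in ending high. On BM its level was 1.12, 1.15, 1 and 2.45 and on MSM it was 1.14, 1.42, 1 and 1.87. It fell in the middle step by 0.62 ± 0.042 on BM and 0.47 ± 0.029 on MSM, and its last step was 1.81 ± 0.036 and 0.92 ± 0.027. The gene parp, of a poly(ADP-ribose) polymerase, had middle steps of -0.44 ± 0.14 and -0.44 ± 0.11, neither of which passed the test.

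The middle step differed between the media for 220 of the 402 genes, by the same test on the difference. In 86 genes it was higher on MSM and in 134 it was lower there, against 33.5% and 34.1% of all 8676 genes, so that the share higher on MSM was 21.4% and the share lower was 33.3%. Lower on MSM were tol (by 1.53 ± 0.23), ham-8 (by 1.52 ± 0.033), the beta-glucosidase family gene gh1-1 (by 1.21 ± 0.20), ham-7 (by 1.13 ± 0.028) and ncw-1, a wall protein gene (by 1.09 ± 0.18). Higher on MSM were ena-1 (by 1.11 ± 0.013), prk-3 (by 1.02 ± 0.060), the chitinase family gene gh18-7 (by 0.93 ± 0.11), cut-1 (by 0.89 ± 0.026) and nor-1 (by 0.83 ± 0.021). All of these were relative to the median gene of each medium, and with the deposited ratios uncentred the split became 40 higher and 220 lower on MSM.

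**Figure D5:**
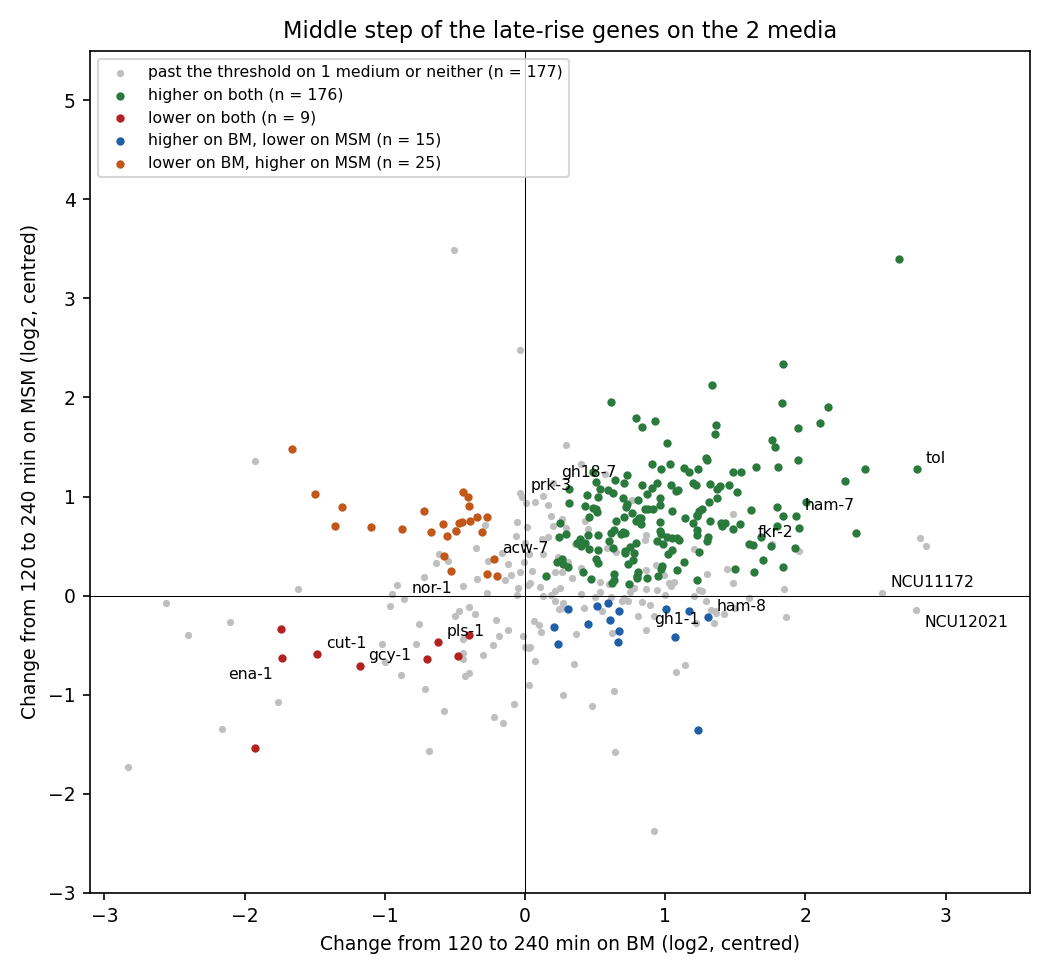
Each point is 1 of the 402 late-rise genes, by its centred log2 change from 120 to 240 min on BM (x axis) and on MSM (y axis); colors mark genes past the test on both media and grey the other 177. The 176 green points at the upper right outnumber the other colored groups, of 9, 15 and 25 genes.

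Wall genes among the late-rise genes followed several paths. The gh18-7 level was 2.20, 1, 1.53 and 2.02 on BM and 1, 1.22, 2.61 and 10.3 on MSM. Without centring, it thus ended close to its 15 min level on BM and about 10-fold above it on MSM. Its neighbor NCU17227, 4 bases away, had rises of 0.72 on BM and 1.81 on MSM beside 0.92 and 2.00 for gh18-7. In contrast, ncw-1 had BM levels of 2.49, 1, 4.65 and 12.95 and MSM levels of 1, 1.08, 1.71 and 3.77. The wall protein gene acw-10 rose by 2.04 ± 0.020 on BM in the last step and by 0.62 ± 0.021 on MSM, close to the required rise. The gene acw-7, also of a wall protein, had a middle step of -0.22 ± 0.0077 on BM that became 0.20 with uncentred ratios, and it rose on MSM by 0.37 ± 0.0076. The glucanase gene neg-1 had nearly equal last steps of 1.16 ± 0.12 and 1.13 ± 0.086, and neither of its middle steps passed the test. Of 58 genes in the cell wall and septum list, 5 (8.62%) were late-rise genes, against 4.63% of all genes. The rise was met by 10 on BM and 20 on MSM, where 16.7% and 22.4% of all genes met it.

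The list of glycoside hydrolase and sugar transport genes held 85 usable genes and 4 late-rise genes, gh1-1, gh61-7, gh18-7 and gh18-1, a share of 4.71% that was close to the 4.63% over all genes. The gh61-7 gene, of a lytic polysaccharide monooxygenase family, had levels of 1.66, 1, 3.12 and 10.5 on BM and 1, 2.38, 1.92 and 4.37 on MSM. Its last step was 2.28 ± 0.14 on BM and 1.20 ± 0.10 on MSM, and neither middle step passed the test. The gh18-1 rise was poorly determined, 0.67 ± 0.60 on BM and 1.37 ± 0.71 on MSM. In all, 46 late-rise genes had an SE over 0.25 for the rise on at least 1 medium.

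The gene prk-3 on chromosome V had BM levels of 1.80, 1, 1.32 and 1.59 and MSM levels of 1, 1.30, 2.53 and 3.98. Its middle step was -0.02 ± 0.051 on BM, or 0.40 with uncentred ratios, and it rose on MSM by 1.00 ± 0.031. The carotenoid oxygenase family gene cao-1 had last steps of 0.83 ± 0.18 on BM and 0.75 ± 0.072 on MSM, and neither of its middle steps passed the test. The genes gpr-2 and chc-1 fell outside the naming rule and are given after their values were seen. The genes os-5 and trx, described above, also fell outside that rule. The gene gpr-2, of a receptor of the cAMP receptor-like class, had MSM levels of 1.28, 1.03, 1 and 5.19 and BM levels of 1.91, 1, 1.46 and 1.74, so that its last step was 2.39 ± 0.095 on MSM and 0.77 ± 0.12 on BM. The helix-loop-helix transcription factor gene chc-1 rose in the middle step on BM by 0.83 ± 0.11 and had -0.07 ± 0.068 on MSM, which did not pass the test.

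Among genes known only by a KOG description, NCU00281 (UDP-glucosyl transferase family) rose in the last step by 1.23 ± 0.057 on BM and 1.93 ± 0.053 on MSM and also rose in the middle step on both. NCU01219 (glutaredoxin family) had BM levels of 2.36, 1, 2.44 and 4.61 and MSM levels of 1, 2.01, 3.98 and 8.83, and rose in the middle step on both media. NCU01699 (C-type lectin) and NCU01463 (growth factor receptor-bound family) had last steps of 1.94 ± 0.14 and 1.78 ± 0.060 on BM and 1.22 ± 0.13 and 1.15 ± 0.082 on MSM, and neither rose in the middle step on either medium.

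Further genes with a KOG description were chosen after their values were seen, as single examples. The lists fixed for related functions held 0 of 19 ubiquitin and COP9 signalosome genes and 1 of 22 endoplasmic reticulum, secretion and vesicle genes. Over all genes usable on both media the late-rise share was 4.63%. The endosomal sorting genes NCU01791 (VPS24) and NCU00435 (DID4), the alpha-SNAP gene NCU01674 and the Rab4 GTPase gene NCU00889 all rose in the middle step on both media and had last steps between 0.65 and 1.02. So did the predicted E3 ubiquitin ligase gene NCU00691 and the UBX domain gene NCU00771, with last steps of 0.76 and 0.82 on BM and 1.00 and 0.80 on MSM. The chitin synthase family gene NCU00911 and the chitinase gene NCU01742 rose in the middle step on both media, by 1.84 and 1.24 on BM and 0.29 and 0.85 on MSM. The septin gene NCU01998 rose in the middle step on BM by 0.59 and fell on MSM by 0.08, and its last step was 0.65 on BM and 1.62 on MSM.

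Several groups held no late-rise gene. None of 68 usable amino acid biosynthesis genes, 44 oxidative phosphorylation genes, 9 cytosolic ribosome genes or 48 cytoskeleton, motor and cell cycle genes was selected, where 4.63% of all genes were, so that 0 is near that share for the shorter lists. Median last steps of the amino acid genes were 0.02 on BM and -0.85 on MSM, and those of the oxidative phosphorylation genes 0.10 and 0.67. In the middle step 53 of the 68 amino acid genes fell on BM and 58 on MSM, against 36.3% and 32.5% of all genes usable on each. Other lists held 0, 1 or 2 late-rise genes each.

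The selection is sharp at its edges. The symbol-bearing genes just inside the BM rise were pcb-6 (0.61), hH4-2 (0.62) and gh18-1 (0.67), and those just outside were pca-1 (0.599), ham-9 (0.59) and the calmodulin gene cmd (0.58). On MSM parp (0.61), acw-10 (0.62) and hH4-2 (0.67) lay inside, and ff-7 (0.595), rpn-12 (0.591) and ecd-2 (0.57) outside. The lower 95% bound of the rise was at or above 0.6 on both media for 274 of the 402 genes. The late-rise genes had a median gene length of 2076 bases on the NC12 map, against 2283 for the other 8273 usable genes with a mapped length, and the part of length in these results was not tested.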

How the data were processed

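Per the labels and the study's methods, RNA from 24 libraries (TruSeq stranded kit, paired reads) was aligned by the authors to the N. crassa OR74A v12 genome with TopHat2 2.0.12, unique reads were tallied over exons with HTSeq 0.6.1p1, and LOX turned the tallies of 3 replicates and 4 stages into 1 table per medium. The deposited values are ratios to the lowest stage of a gene, with distances to 95% bounds, and 0 where no level was estimated. Columns were matched to stages by the stage number in their names.

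Genes were usable when all 4 levels and lower bounds were above 0 (8773 on BM, 8855 on MSM, 8676 on both). The SE of a log2 level was the width of its 95% interval on the log2 scale divided by 2 normal quantiles, and steps combined 2 SEs as if independent. The middle step was centred on its median, and a two-sided z test called genes at a Bonferroni adjusted p below 0.01, in Python 3 with SciPy. The test was checked on simulated data whose noise was drawn from the same SEs. That check cannot show whether the SEs cover the variation between replicates. Sampling covers 3 temporally separate replicates per group, but the pooled levels hold only their combined error.

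Named genes were the 15 symbol-bearing late-rise genes, the 5 with only a KOG description and the 5 with neither that had the largest smaller rise, up to 4 per list, the 5 symbol-bearing genes with the largest middle step or medium difference in each direction, those at the edges, and tah-4, which the study names. Genes with an SE of the rise over 0.25 were not ranked. Some genes were given outside this rule, among them os-5, trx, gpr-2 and chc-1. Late-rise genes and the 20 lists were chosen with earlier results of these data known; 2 genes of doubtful role were taken off the fusion list after values were seen. Promoter motifs were not analysed here. Gene names and coordinates are from RefSeq (NC12).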

Additional observations from a re-analysis of the deposited data

Results flagged for a closer look

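The middle step, from 120 to 240 min, differed between BM and MSM for 220 of the 402 late-rise genes by the z test on the difference, with Bonferroni adjustment. The step was higher on MSM in 21.4% of the 402, against 33.5% of all genes usable on both media. It was lower there in 33.3%, close to the 34.1% over all genes. The late-rise genes had wider SEs of this step. Their medians were 0.056 on BM and 0.041 on MSM, against 0.030 and 0.026 over all genes. The part of precision in these shares was not tested. Among ranked late-rise genes with a symbol that passed this test, those with the largest differences (MSM minus BM, log2) were tol at -1.53, ham-8 at -1.52, gh1-1 at -1.21, ham-7 at -1.13 and ncw-1 at -1.09 on the lower side. On the higher side they were ena-1 at 1.11, prk-3 at 1.02, gh18-7 at 0.93, cut-1 at 0.89 and nor-1 at 0.83. Genes without a symbol reached further, with NCU12021 at -2.94 and NCU11172 at -2.52. With every SE multiplied by 3, the differences of tol, gh1-1, ncw-1 and gh18-7 no longer passed the test. With ratios not centred, that of gh18-7 was 0.48 and did not pass it.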

How the results depend on the processing

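No paired analysis was possible because the deposited levels pool the 3 replicates of each group, and for the same reason no replicate could be left out. The number of late-rise genes depended on the thresholds. It was 843 with a rise of 0.4, 205 with 0.8 and 111 with 1, 163 with a first step below 0.5, 693 with no limit on the first step and 103 with deposited ratios not centred. The proteasome list held 6 late-rise genes with a rise of 0.4 and 21 with no limit on the first step, a setting chosen after seeing the data, instead of 3. A Benjamini-Hochberg adjusted p below 0.05 raised the number falling in the middle step to 67 on BM and to 69 on MSM. With ratios not centred, 22 fell on BM, and for the medium difference 40 were higher and 220 lower on MSM. With the SE multiplied by 3, 164 genes were called on BM (138 higher, 26 lower), 164 on MSM (11 lower) and 89 for the medium difference (38 higher, 51 lower on MSM). With a change of at least 2-fold required, 120 were called on BM (107 higher, 13 lower), 72 on MSM (67 higher, 5 lower) and 76 for the difference (29 higher, 47 lower on MSM). The counts of calls at these alternative settings are given without shares over all genes and were not compared with them.

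Of the named values, 10 changed sign with ratios not centred. The middle step became 0.20 for acw-7 and 0.40 for prk-3 on BM and -0.032 for adv-1 on MSM. The difference of MSM minus BM became -0.43 for neg-1, -0.30 for pls-1, -0.13 for rpt-1, -0.12 for pcb-6, -0.36 for ccg-16, -0.26 for tah-4 and -0.45 for parp. With the centring of the selection applied to the middle step, chosen after seeing the data, this difference became 0.015 for adv-1, 0.16 for erg-3 and 0.13 for acw-10. The cause of the common shift on BM was not tested. The other alternatives, a limit of 0.25 on the SE at every stage used and a centring on genes measured at stages 2 and 3 only, changed the sign of none of these values and no count of genes by more than 1.5 times.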
